A study of Mus musculus with 12 samples.

Results

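The 8 genes described here are neutrophil chemokines and neutrophil transcripts in mouse skin, taken from 23469 gene IDs of the count table by matching each Entrez Gene ID to its symbol. They are the chemokines Cxcl1, Cxcl2, Cxcl3 and Cxcl5, the receptors Cxcr2, Csf3r and Hcar2, and the secreted protein Retnlg. Each gene had 1 row, and 6 of the 8 passed the filter on low counts, as did 15341 genes in all. Cxcl1 and Cxcl3 did not. RNA came from back skin in 12 libraries, 3 in each of 4 groups. Labelled-null mice and wild-type BALB/c mice were compared, each with an ASP patch, which held 200 µg of an extract of the mould Aspergillus fumigatus, or a SAL patch, a term that the labels do not expand. All groups were shaved on day 0, carried the patch from day 1 to day 4 and gave skin on day 5. The genotype is called labelled-null because the labels name it in 3 ways, as a knockout of SCCA2, as Serpinb3a-transgenic and as a Serpinb3a null. Serpinb3a itself stood at 1.74 to 8.61 counts-per-million (CPM) in the 6 libraries labelled null and at 0.264 to 1.40 in the 6 wild-type libraries, so directions between genotypes go by the label. The labels give no age, and nothing in them ties each library to an animal of its own. The p-values therefore measure only the spread between these samples.

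Neutrophils are short-lived phagocytes that leave the blood and enter skin within hours of injury or infection. Keratinocytes, macrophages and stromal cells call them in by secreting chemokines of the CXC family, whose genes are switched on by IL-1, TNF and IL-17 through the transcription factor NF-κB and whose mRNAs decay quickly. The chemokines bind Cxcr2 on the neutrophil, while the growth factor G-CSF acts through Csf3r to raise neutrophil output from bone marrow. Retnlg is a resistin-like protein of mouse marrow and neutrophils, and Hcar2 is a receptor for nicotinic acid and ketone bodies that neutrophils share with macrophages, adipocytes and cells of the epidermis.

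Libraries held 6705396 to 12933436 counts, and values below are TMM-scaled CPM (TMM, the trimmed mean of M-values, is a scaling factor for each library), so that 1 read was worth 0.0758 to 0.160 CPM. Major urinary protein genes took 8.43% to 39.0% of a library. Keratinocyte markers summed to 4562 to 15310 CPM and skeletal muscle markers to 17190 to 93880 CPM, and the biological coefficient of variation common to the genes tested was 0.427. Wild-type ASP replicate 3 and labelled-null SAL replicate 1 stood farthest from the rest, with median Spearman correlations of 0.894 and 0.899 with the other libraries. In bulk skin, fewer cells of a type and less RNA per cell cannot be told apart.

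Of the 4 chemokines, Cxcl5 was measured well in every library, Cxcl2 was carried by a few libraries, and Cxcl1 and Cxcl3 were almost absent. All 4 lie in 1 cluster on chromosome 5, on the forward strand of mm10 (GRCm38.p6). In the RefSeq annotation Cxcl5 spans 90759298 to 90761625, Cxcl3 90786101 to 90788093, Cxcl1 90891245 to 90893121 and Cxcl2 90903899 to 90905938. Pf4, platelet factor 4, lies between Cxcl5 and Cxcl3, and Cxcl15, a chemokine known from lung, between Cxcl3 and Cxcl1. Among the genes named here, the stretch from Cxcl15 to Cxcl1 is the widest, at 88.2 kb, and the others run from 6.4 to 12.7 kb. Other genes, the CXC ligand gene Ppbp among them, were not placed, so these stretches may hold further genes.

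The RefSeq promoters of Cxcl1, Cxcl2 and Cxcl3 are shown because these 3 genes were near 0 in most libraries and Cxcl2 and Cxcl3 peaked in the same library. Some 50-base stretches are the same in Cxcl2 and Cxcl3 transcripts, and whether the Cxcl3 peak is separate from that of Cxcl2 was not tested. Each run is the 110 bases that end just before the earliest start in either the RefSeq or the GENCODE M21 annotation, at chr5:90891131-90891240 for Cxcl1, chr5:90903761-90903870 for Cxcl2 and chr5:90785991-90786100 for Cxcl3, forward strand, GRCm38.p6. Capitals mark the only 2 runs of 7 or more bases that all 3 stretches share, GGGAATTTCCC, a form of the κB element that NF-κB binds, and ATAAAAGG, a TATA-like element.
Cxcl1: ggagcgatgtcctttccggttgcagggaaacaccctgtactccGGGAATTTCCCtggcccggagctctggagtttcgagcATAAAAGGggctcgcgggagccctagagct
Cxcl2: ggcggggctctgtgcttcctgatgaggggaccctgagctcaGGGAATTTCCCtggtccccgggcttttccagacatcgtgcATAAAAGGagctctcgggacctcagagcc
Cxcl3: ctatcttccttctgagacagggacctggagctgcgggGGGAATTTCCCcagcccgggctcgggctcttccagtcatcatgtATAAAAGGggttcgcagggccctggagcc
The κB match begins 71 bases before the RefSeq start in Cxcl1, 97 in Cxcl2 and 73 in Cxcl3, and the TATA-like match begins 34, 57 and 29 bases before it in the same order. For Cxcl2 the GENCODE start, at 90903871, lies before the RefSeq start, at 90903899, so both Cxcl2 matches are closer to the GENCODE start. Both motifs were then searched for on both strands of all promoters, and they do not overlap each other. Of 27025 genes with a promoter in the table, 14 (0.0518%) hold this κB form in the 250 bases before a start, and 1.83% hold the TATA-like form. A match is a description of the letters, not evidence of a bound site. Promoters were matched for 6 of the 8 genes.

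Cxcl1, a chemokine that keratinocytes release on injury, had 2, 0 and 2 counts in labelled-null ASP libraries and 0, 6 and 0 in wild-type ASP libraries. Under SAL it had 0, 0 and 1 counts in labelled-null and 0, 0 and 0 in wild type. The 11 reads over 12 libraries were too few to test, and 6 of them came from wild-type ASP replicate 2. In the wild-type SAL libraries a count of 0 allows up to 3 counts, or 0.228 to 0.308 CPM, so a level under that was not detectable at this depth. These limits cover counting error only.

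Cxcl3, a close relative of Cxcl2, had 0 counts in all 6 ASP libraries. Under SAL it had 0, 0 and 4 counts in labelled-null and 1, 0 and 0 in wild type. Its 5 reads fell in labelled-null SAL replicate 3 and wild-type SAL replicate 1, the libraries with most Cxcl2 reads, 71 and 18. Of the 50-base stretches of Cxcl2 transcripts, 5.84% also occur in Cxcl3. Whether the 5 reads came from Cxcl2 was not tested.

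Cxcl2, a chemokine of activated macrophages and of neutrophils themselves, had 5, 1 and 1 counts in labelled-null ASP libraries and 0, 10 and 0 in wild-type ASP libraries. Under SAL it had 0, 6 and 71 counts in labelled-null and 18, 0 and 0 in wild type. Labelled-null SAL replicate 3 alone held 63.4% of all Cxcl2 reads, and in 5 libraries there were none. The mean level was 0.222 ± 0.224 CPM in labelled-null ASP and 0.311 ± 0.539 in wild-type ASP, while labelled-null SAL had 2.48 ± 3.70 and wild-type SAL 0.544 ± 0.942 (SD, n = 3 each), so that in all groups the SD was about as large as the mean or larger. For ASP against SAL in labelled-null skin the log2 fold change was -3.46 ± 1.74 (SE), and its adjusted p in edgeR's quasi-likelihood test was 0.989. Without labelled-null SAL replicate 3 it was -0.75. Between the SAL groups, labelled-null against wild type gave 2.20 ± 1.59, with a 95% interval of -1.16 to 5.57, and without that library it turned to -0.51. All groups overlapped. Of the 2159 stretches of 50 bases in Cxcl2 transcripts, 5.84% also occur in Cxcl3 and in no other gene, so some reads could be assigned to either.

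**Figure D1:**
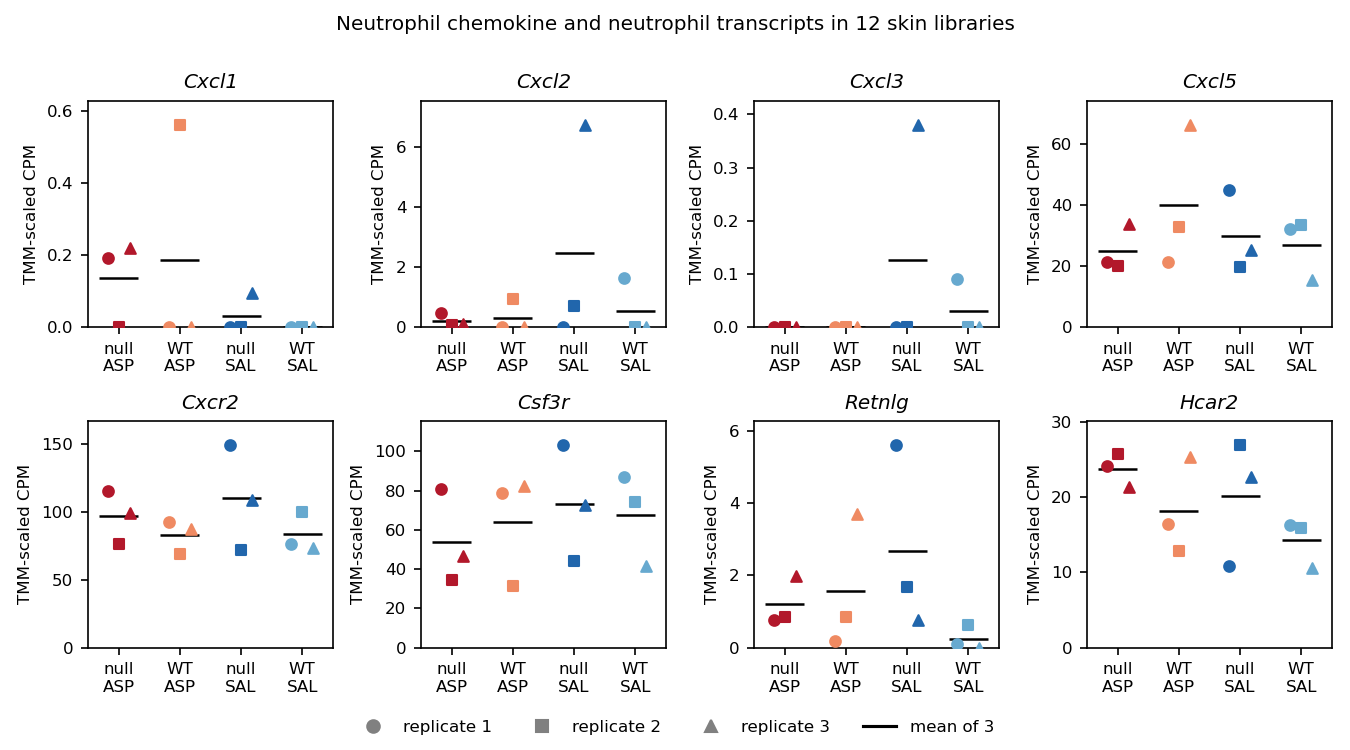
Level of each of the 8 genes (TMM-scaled CPM, vertical axis, each panel with its own scale from 0) in the 4 groups of 3 libraries; marker shapes are replicate numbers and black lines are group means. Cxcl2 and Cxcl3, whose transcripts are the same in some stretches, peak in labelled-null SAL replicate 3, at 6.74 and 0.380 CPM. For Retnlg all 3 labelled-null SAL libraries lie above all 3 wild-type SAL libraries.

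Some other short-lived inflammatory mRNAs, named after their values were seen, were highest in the same 2 libraries as Cxcl2 and Cxcl3, and others were not. Il1b, which encodes a cytokine that induces these chemokines, had 93 counts in labelled-null SAL replicate 3 and 62 in wild-type SAL replicate 1, against 3 to 35 in the other 10 libraries. Acod1, the itaconate-producing enzyme of activated macrophages and neutrophils, had 64 and 26 counts in these libraries and at most 4 elsewhere. Trem1, an activating receptor of neutrophils and monocytes, had 9 and 22 counts there and at most 3 elsewhere. Ccl3, a chemokine of activated myeloid cells, had 16 and 52 counts there, but also 16 in wild-type SAL replicate 2, and at most 4 in the other 9. Other inducible transcripts did not set these libraries apart. Tnf, which encodes a cytokine that induces these chemokines, had 5 and 6 of its 96 counts there and was highest in labelled-null SAL replicate 2, with 22. Il6, another inflammatory cytokine gene, had 6 and 1 of 23 counts there and was also highest in labelled-null SAL replicate 2, with 9. Lif, a cytokine of the interleukin-6 family, had 22 and 27 of 176 counts there, and Ptgs2, the inducible cyclooxygenase, 103 and 108 of 779. Of both libraries 1 is labelled-null and 1 wild-type, both with a SAL patch, and they held 12009435 and 12659425 counts, among the 3 deepest. Wild-type SAL replicate 1 also stood apart in hair markers, which summed to 396 CPM there, against 10.9 or less in the other 11 libraries, while labelled-null SAL replicate 3 did not. The part of hair content or depth in these reads was not tested.

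**Figure D2:**
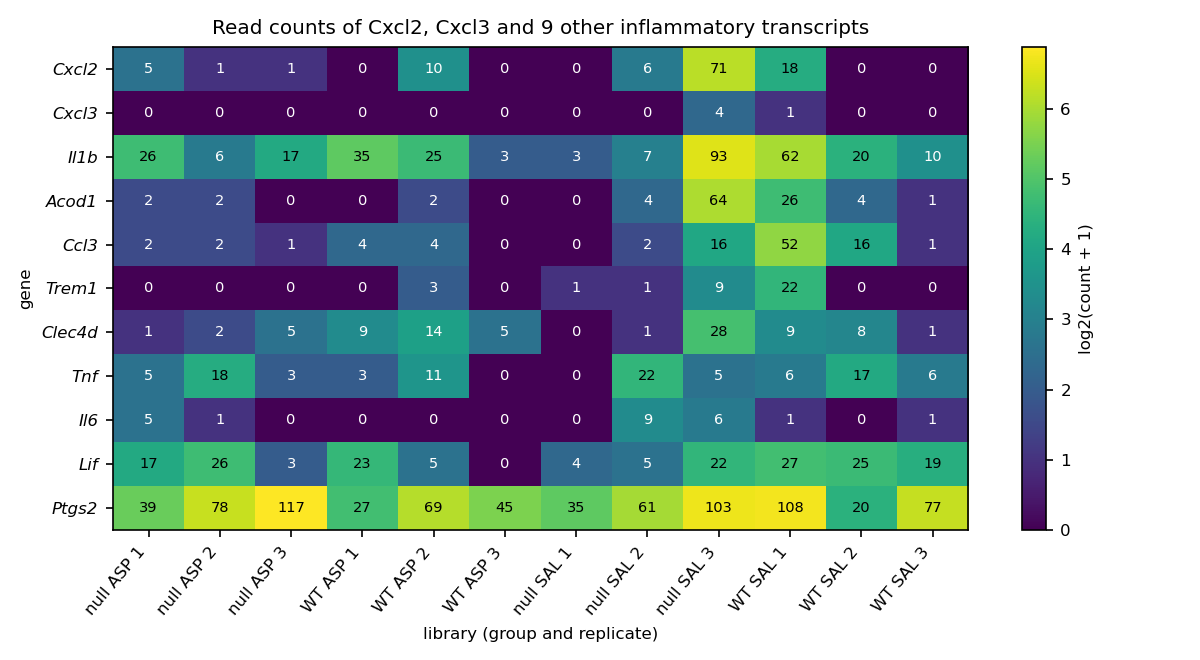
Read counts (number in each cell, colour as log2(count + 1)) of Cxcl2, Cxcl3 and 9 other inflammatory transcripts in the 12 libraries, in columns by group and replicate. Labelled-null SAL replicate 3 and wild-type SAL replicate 1 hold the highest Cxcl2, Cxcl3, Il1b and Acod1 counts, while Tnf and Il6 are highest in labelled-null SAL replicate 2, with 22 and 9 counts.

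Cxcl5, an epithelial chemokine that also binds Cxcr2, was at 21.3, 20.1 and 33.9 CPM in labelled-null ASP libraries and at 21.4, 32.8 and 66.3 in wild-type ASP libraries. Under SAL it was at 45.0, 19.6 and 25.3 CPM in labelled-null and at 32.4, 33.6 and 15.4 in wild type. The highest and lowest libraries differed 4.30-fold, and the highest and lowest group means 1.60-fold. The group ranges overlapped in every comparison. The log2 fold change of ASP over SAL was 0.56 ± 0.44 (95% interval -0.37 to 1.49) in wild type and -0.26 ± 0.44 (-1.19 to 0.68) in labelled-null. Each of these signs rested on 1 library, since the values were -0.0052 without wild-type ASP replicate 3 and 0.16 without labelled-null SAL replicate 1. Labelled-null against wild type under ASP gave -0.68 ± 0.44 (adjusted p = 0.999), and -0.11 without wild-type ASP replicate 3.

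Cxcr2, the receptor for all 4 chemokines, lies on chromosome 1 from 74153994 to 74161246. It was at 115.9, 76.3 and 99.3 CPM in labelled-null ASP libraries and at 92.5, 69.4 and 87.2 in wild-type ASP libraries. Under SAL it was at 149, 71.7 and 109 CPM in labelled-null and at 76.5, 100.2 and 73.8 in wild type. Of the 8 genes it varied least between libraries, with a coefficient of variation of 25.0% over all 12. The log2 fold change of ASP over SAL, averaged over genotypes, was -0.09 ± 0.22, with a 95% interval of -0.55 to 0.36, that is 0.684- to 1.28-fold, and it turned to 0.046 without labelled-null SAL replicate 1. Labelled-null against wild type averaged over treatments gave 0.31 ± 0.22 (-0.14 to 0.77). The upper bound of that interval corresponds to a 1.70-fold higher level.

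Csf3r, the G-CSF receptor, lies on chromosome 4 from 126023441 to 126044975. It was at 80.7, 34.6 and 46.8 CPM in labelled-null ASP libraries and at 78.8, 31.6 and 82.3 in wild-type ASP libraries. Under SAL it was at 103.0, 43.9 and 72.7 CPM in labelled-null and at 87.2, 74.2 and 41.3 in wild type. Each group held libraries on both sides of a gap between 46.8 and 72.7 CPM, with 7 libraries above and 5 below. The log2 fold change of ASP over SAL, averaged over genotypes, was -0.26 ± 0.30 (95% interval -0.89 to 0.38), and that of labelled-null over wild type, averaged over treatments, was -0.07 ± 0.30 (-0.70 to 0.57), a sign that turned without any 1 of 5 libraries (up to 0.066). The spread within groups, a mean coefficient of variation of 40.9%, was larger than that over all 12 libraries, 36.7%.

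Retnlg, on chromosome 16 from 48872608 to 48874498, was the 1 gene of the 8 whose groups did not overlap in a comparison. Under ASP it had 8, 11 and 18 counts in labelled-null and 2, 9 and 28 in wild type, and under SAL 35, 14 and 8 in labelled-null and 1, 6 and 0 in wild type. In CPM the SAL groups stood at 5.59, 1.67 and 0.759 in labelled-null and at 0.0906, 0.617 and 0 in wild type. The gap between the SAL groups was thus 0.759 against 0.617 CPM at its narrowest. The comparison of the SAL groups gave a log2 fold change of 3.50 ± 1.26, with a 95% interval of 0.83 to 6.16. It ranked 176 of 15341 genes by p (0.0131) and was not called in edgeR's test (adjusted p = 1, and 0.407 with DESeq2). The groups did not overlap in this direction for 3.62% of all genes tested, and in either direction for 8.06%. In the other comparisons 0 of the 6 genes tested had groups that did not overlap. That share of all genes was 6.79% for ASP in wild type, 10.5% for ASP in labelled-null and 7.62% between genotypes under ASP. Over 6 against 6 libraries it was 0.183% for ASP and 0.202% for genotype. Without labelled-null SAL replicate 1 the log2 fold change was 2.38, and without wild-type SAL replicate 2 it was 5.59.

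Against the same wild-type SAL libraries, the wild-type ASP libraries also had more Retnlg, with a log2 fold change of 2.72 ± 1.25 (adjusted p = 0.999 in edgeR) and overlapping groups. That value was 1.14 without wild-type ASP replicate 3 and 4.82 without wild-type SAL replicate 2. In labelled-null skin ASP against SAL gave -1.14 ± 1.10, which was -0.028 without labelled-null SAL replicate 1, and labelled-null against wild type under ASP gave -0.37 ± 1.10, which turned to 1.22 without wild-type ASP replicate 3 and to 0.47 with limma-voom. The difference between the ASP effects in labelled-null and wild type, the interaction, was -3.87 ± 1.66 with an adjusted p of 0.998. All these values rest on 140 reads in all, and the wild-type SAL group held 7 of them. Monocyte and macrophage markers, 12 genes in the table, summed to 477 to 684 CPM in labelled-null SAL and to 402 to 487 in wild-type SAL. Of the neutrophil surface and cytosolic genes, Cd177 had at most 8 counts and Fcgr4 at most 2 in any library, too few to test. Of the 25 tested in that list, Retnlg among them, 21 had a positive log2 fold change between the SAL groups and 4 a negative one. The part of macrophages or of neutrophils in the Retnlg values was not tested.

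Hcar2, on chromosome 5 from 123863570 to 123865516 on the reverse strand, was at 24.2, 25.8 and 21.3 CPM in labelled-null ASP libraries and at 16.5, 12.9 and 25.4 in wild-type ASP libraries. Under SAL it was at 10.9, 26.9 and 22.7 CPM in labelled-null and at 16.3, 15.9 and 10.6 in wild type. The labelled-null ASP libraries lay close together, at 23.8 ± 2.28 CPM (SD, n = 3), and the groups overlapped in every comparison. Labelled-null against wild type averaged over treatments gave a log2 fold change of 0.44 ± 0.27 (95% interval -0.12 to 1.00, adjusted p = 1). ASP against SAL averaged over genotypes gave 0.29 ± 0.27 (-0.27 to 0.85), and -0.00857 without both libraries farthest from the rest. Hcar1, the lactate receptor of adipocytes beside it on chromosome 5, had a log2 fold change of -1.26 ± 0.46 for ASP over SAL in wild type, and was not called either (adjusted p = 0.999).

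Over the 6 genes tested, edgeR called 0 for ASP against SAL in wild type, 0 in labelled-null, 0 for labelled-null against wild type under ASP and 0 under SAL, where 0% of all 15341 genes were called in each of these. It called 0 for the interaction and 0 for ASP averaged over genotypes, again beside 0% of all genes. For labelled-null against wild type averaged over treatments it called 0 of the 6, beside 0.00652% of all genes, which is 1 gene. At an unadjusted p under 0.05, Retnlg alone passed, in 3 comparisons (ASP in wild type, labelled-null against wild type under SAL, and the interaction). The share of all genes under that p was 4.74%, 4.37% and 3.81% in these comparisons in the same order. It was 4.52% for ASP in labelled-null, 3.07% between genotypes under ASP, 5.64% for ASP averaged over genotypes and 3.74% for genotype averaged over treatments. DESeq2 and limma-voom called 0 of the 6 in every comparison as well. The median SE of a log2 fold change between 2 groups was 0.46 over all genes.

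**Figure D3:**
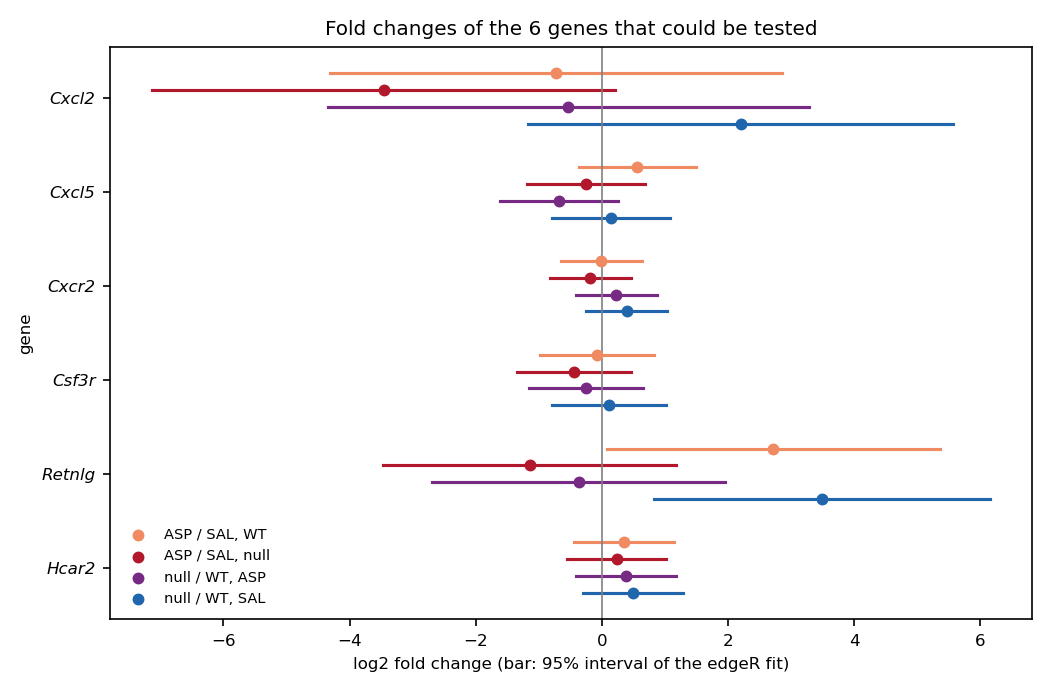
Log2 fold change (horizontal axis) with its 95% interval from the edgeR fit for the 6 genes tested, in 4 comparisons shown by colour. The intervals of Cxcr2 are the narrowest and those of Cxcl2 the widest, and only 2 Retnlg intervals, 0.080 to 5.36 for ASP in wild type and 0.83 to 6.16 for labelled-null under SAL, leave out 0.

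Per kilobase of exon, Cxcr2 and Csf3r stood highest of the 8 genes and the inducible chemokines lowest. For Cxcl1, Cxcl2 and Cxcl3 the exons of all transcripts together span the whole gene, 1875, 2068 and 3498 bases. A shorter spliced transcript would give these genes higher values per kilobase. The median over 12 libraries was 29.5 CPM per kilobase for Cxcr2, 20.4 for Csf3r, 15.5 for Cxcl5, 9.81 for Hcar2, 1.35 for Retnlg and 0.0449 for Cxcl2, and it was 0 for Cxcl1 and Cxcl3. Neighbours in this order overlapped between libraries: Cxcr2 ran from 22.8 to 48.9, Csf3r from 8.74 to 28.5, Cxcl5 from 8.28 to 35.6, Hcar2 from 5.51 to 13.9 and Retnlg from 0 to 9.43. S100a8 and S100a9, which encode calprotectin and are among the most abundant mRNAs of neutrophils, had medians of only 1.96 and 2.97 CPM per kilobase. Both peaked in wild-type ASP replicate 2, with 48 and 79 counts, which was also the highest library for Cxcl1. The integrin chains Itgam and Itgb2, shared with macrophages, had medians of 8.28 and 4.89.

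Several of the listed neutrophil transcripts were at or near 0, while others, with Cxcr2 and Csf3r, were not. Cxcr1, the sister receptor of Cxcr2, had 1 read in all. The formyl peptide receptor Fpr1 had at most 6 counts in a library and Trem1 at most 22. The granule proteins Ngp and Camp had at most 3 and 8 counts, and Ctsg, the serine protease cathepsin G, had 1 read in all. Other members of the same lists were counted in every library. Padi4 had 65 to 171 counts, Il1r2 14 to 214, Pirb 77 to 471 and Mxd1 349 to 1079. Cxcr2 had 599 to 1206 counts and Csf3r 338 to 962 in every library. Levels of Csf3r and S100a8 showed no common order over the 12 libraries (Pearson r = -0.24, Spearman rho = -0.24, two-sided permutation p = 0.435 and 0.456, adjusted over 12 relations 0.652 and 0.729). Without the 2 libraries farthest from the median, r was 0.0046, and over the 7 libraries above the Csf3r gap it was 0.027. For Cxcr2 and S100a8 the values were r = -0.15 and rho = -0.22 (permutation p = 0.646 and 0.486, adjusted 0.775 and 0.729), and r was -0.08 without the 2 farthest libraries. Against Retnlg, Lcn2, S100a9 and Itgb2, Cxcr2 had r = 0.484, 0.359, -0.355 and -0.261. Without the 2 farthest libraries these were 0.166, -0.068, 0.086 and 0.704. Csf3r had 0.203, 0.022, -0.357 and -0.073 in the same order. The permutation p of each of these r over 12 libraries, adjusted over the 12 relations, was 0.448 or more.

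**Figure D4:**
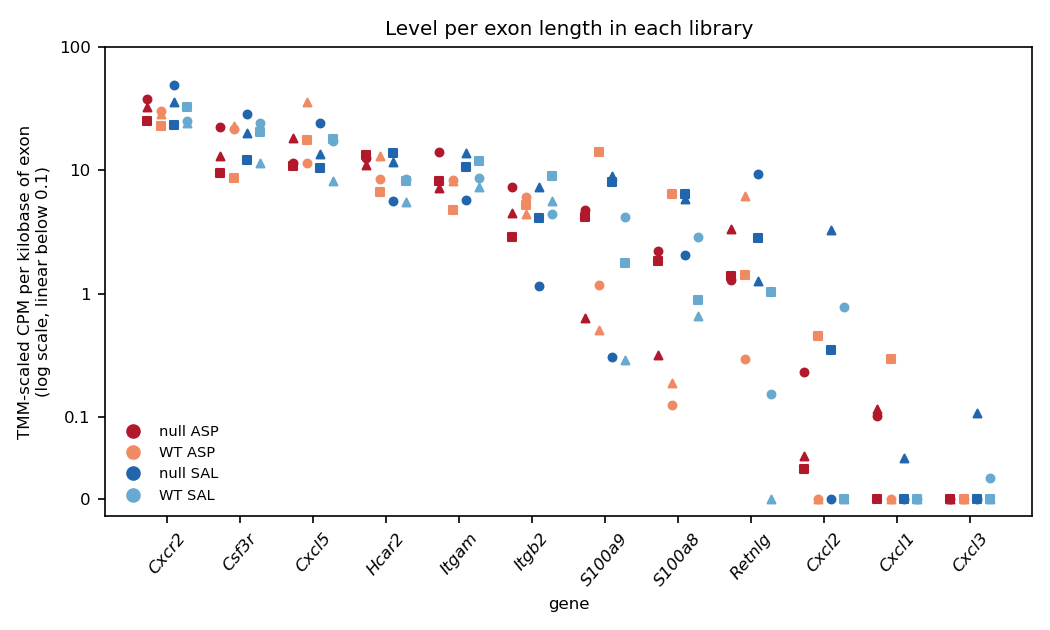
Level per exon length (TMM-scaled CPM per kilobase, log scale above 0.1 and linear below) of the 8 genes and 4 further neutrophil transcripts, with 1 point per library, colour for group and marker shape for replicate. Cxcr2 and Csf3r lie above S100a8 and S100a9 in most libraries, with medians of 29.5 and 20.4 against 1.96 and 2.97.

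The genes whose pattern was most like each receptor's were not neutrophil genes by name. Likeness was the Pearson correlation of log2(CPM + 0.5) over 12 libraries among 14922 genes, given as a description. For Csf3r the nearest were Nsl1 (0.989), Gm15401 (0.988) and Mettl2 (0.986), the last with a Spearman rho of 1, so that all 12 libraries stood in the same order. For Cxcr2 they were Mfsd11 (0.968), Pbld1 (0.965) and Pola2 (0.945). Xcr1, a chemokine receptor known from cross-presenting dendritic cells and looked at after its values were seen, followed Csf3r closely (r = 0.942, rho = 0.888). That r was 0.906 without the 2 farthest libraries and 0.687 over the 7 libraries above the Csf3r gap. Xcr1 stood at 75.9 to 598 CPM, whereas Clec9a, another gene of those dendritic cells, stood at 0.673 to 7.99 CPM (7 to 50 counts). Dendritic and Langerhans cell markers, which include Xcr1, summed to 292 to 508 CPM in labelled-null ASP and 232 to 690 in wild-type ASP. Under SAL they summed to 506 to 792 CPM in labelled-null and 312 to 588 in wild type. Xcr1 alone gave 598 of the 792 CPM and 75.9 of the 232, so these sums are not separate from its own level. Cxcr2 and Csf3r had r = 0.70 and rho = 0.67 with each other (two-sided permutation p = 0.0111 and 0.0201, adjusted over 15 pairs of the 6 genes 0.121 and 0.302). Without the 2 farthest libraries that r was 0.53, so the relation did not pass and leaned on them.

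**Figure D5:**
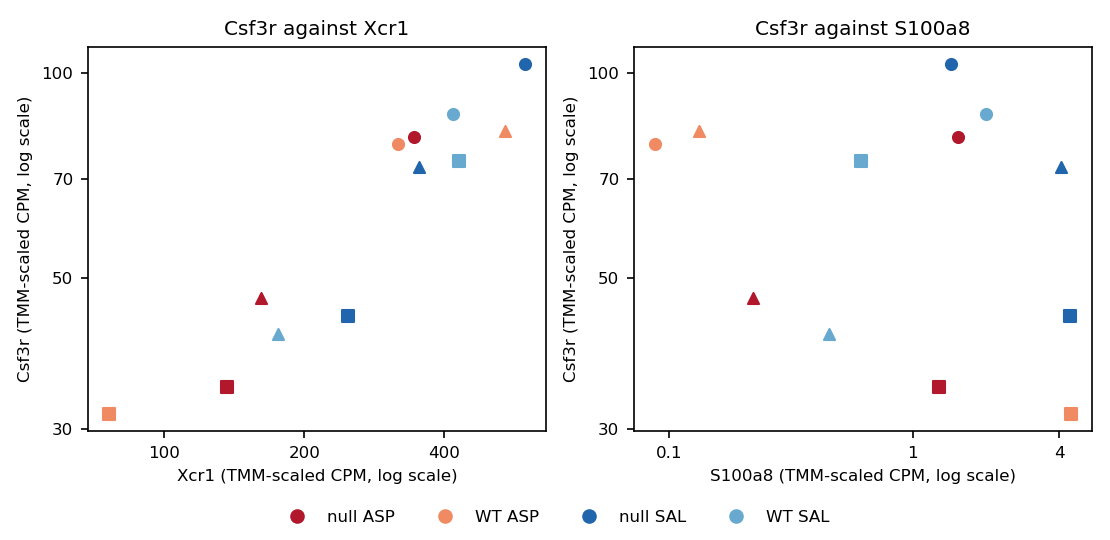
Csf3r (vertical axis) against Xcr1 (left) and S100a8 (right), all in TMM-scaled CPM on log scales, with 1 point per library, colour for group and marker shape for replicate. Csf3r follows Xcr1 (r = 0.942) and shows no common order with S100a8 (r = -0.24).

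Part of the transcripts of both receptors is not unique in the genome. Of the 50-base stretches of Csf3r, 10.7% also occur in transcripts of 402 other genes, and of those of Cxcr2, 6.68% occur in 220 other genes, most often in Pbld1. The share was 4.29% for Cxcl3, 0.693% for Cxcl5 and 0 for Cxcl1, Retnlg and Hcar2. Among tested genes that share a stretch with Csf3r, 25.6% of 285 correlated with it at 0.7 or more, against 4.57% of the other genes. For Cxcr2 these shares were 21.8% of 147 and 2.38%. Most sharing genes followed the receptors far less closely. Their median r was 0.224 for Csf3r and 0.05 for Cxcr2, against -0.0262 and -0.0193 for the other genes. Of the nearest genes named above, Nsl1 and Pbld1 share a stretch, and Mettl2, Gm15401, Mfsd11 and Pola2 do not. The sources used here do not say how reads with several matches were counted. A share of stretches is not a share of reads, so the levels of Cxcr2 and Csf3r are uncertain by an amount that was not tested.

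For the other genes, the nearest to Cxcl2 was the collagenase Mmp13 (r = 0.922, rho = 0.741), and r was 0.761 without the 2 libraries with most Cxcl2. The nearest to Cxcl5 were Gm14403 (0.937), E230016K23Rik (0.935) and Fcho2 (0.932). Those nearest to Retnlg were the lysophosphatidic acid receptor Lpar6 (0.882), the leukocyte tetraspanin Cd53 (0.878) and Rnf146 (0.877). Hcar2 was nearest to the mitotic spindle gene Aspm (0.898), Rptn, which encodes repetin of the cornified envelope (0.896), and Gm10804 (0.861). Among the 6 genes themselves, 0 of 15 pairs passed after adjustment. The highest after Cxcr2 with Csf3r was Cxcl5 with Retnlg (r = 0.67, rho = 0.56, two-sided permutation p = 0.0161 and 0.0629, adjusted 0.121 and 0.472, and r = 0.43 without the 2 farthest libraries).

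The wider neutrophil pathway was examined through 103 listed gene symbols, of which 99 matched a symbol in the table and 68 were tested. Il36g and Il1f9 were listed as separate symbols. In any comparison edgeR called 0 of those tested. Of the signals upstream of the chemokines, Il17f and Il22 had no reads, and Csf3, which encodes G-CSF, and Il17a had at most 2 counts in a library. Among the receptors, C5ar1, the receptor for complement C5a, had a log2 fold change of 2.02 ± 0.71 for labelled-null over wild type with the SAL patch (adjusted p = 1 in edgeR). That rested on labelled-null SAL replicate 1, at 60.7 CPM against 2.38 to 13.1 in the other 11 libraries, and was 0.34 without it. Ackr1, which carries chemokines across venules, and Ptafr, the receptor for platelet-activating factor, had -0.73 ± 0.34 and 1.30 ± 0.51 for ASP over SAL in wild type (adjusted p = 0.999 for both).

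Among the granule proteins, Lcn2, the iron-siderophore binding lipocalin, had 20, 152 and 47 counts in labelled-null ASP and 13, 7 and 0 in wild-type ASP. Under SAL it had 120, 83 and 65 counts in labelled-null and 34, 117 and 25 in wild type. The ASP groups did not overlap, which held for 4.15% of all genes in this direction, and the log2 fold change of labelled-null over wild type was 3.28 ± 0.92 (adjusted p = 0.999 in edgeR). Without labelled-null ASP replicate 2 it was 2.47. For ASP over SAL in wild type it was -3.14 ± 0.92, and -1.96 without wild-type SAL replicate 2. Mpo, myeloperoxidase of primary granules, gave 2.39 ± 0.94 for labelled-null against wild type under ASP, from 9, 46 and 4 counts in labelled-null against 4, 3 and 2 in wild type, and it was 1.10 without labelled-null ASP replicate 2. Lcn2 is also made by stressed keratinocytes. Elane, neutrophil elastase, had 17 and 33 counts in 2 wild-type libraries, 1 ASP and 1 SAL, and at most 1 in the other 10.

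The list of neutrophil surface and cytosolic genes was the longest of the neutrophil lists. Of its 25 tested members, of 34 in the table, 21 had a positive log2 fold change between the SAL groups (labelled-null over wild type), with a median of 0.56, beside 51.3% positive and a median of 0.012 over all genes tested. The count at an unadjusted p under 0.05 was 5 of the 25, beside 4.37% of all genes tested, and 0 were called, beside 0% of all genes. The list includes Retnlg, Hcar2, Cxcr2 and Csf3r, which had 3.50, 0.50, 0.40 and 0.115 between the SAL groups. Other lists were as one-sided in that comparison, with 10 of 12 monocyte and macrophage markers (median 0.50), 4 of 4 eosinophil and basophil markers (0.69), 6 of 7 adipocyte markers (0.22) and 5 of 5 CXC ligands (0.38) positive. The part of monocytes and macrophages in the neutrophil list, which shares transcripts with them, was not tested. Leaving out labelled-null SAL replicate 3 gave 18 of 25 positive with a median of 0.41, and leaving out wild-type SAL replicate 1 as well, chosen after the data were seen, gave 17 of 25 and 0.37. Mxd1, a transcription factor of maturing granulocytes, had 0.96 ± 0.32 and Lrg1, a glycoprotein of granulocytes and endothelium, 1.06 ± 0.38. Stfa2l1, a stefin of mouse neutrophils with near-identical copies, had 1, 46 and 56 counts in labelled-null SAL and 8, 0 and 0 in wild-type SAL. Its log2 fold change was 3.88 ± 1.38, and without wild-type SAL replicate 1, which leaves that group at 0, it was 8.22 and depends on the prior count. For ASP against SAL in labelled-null, which uses the same labelled-null SAL libraries, 19 of the 25 were negative with a median of -0.61, beside a median of -0.014 over all genes, and Lrg1 had -1.22 ± 0.38. Without labelled-null SAL replicate 3 that median was -0.27, with 17 of 25 negative. Under ASP, labelled-null against wild type gave 10 positive and 15 negative with a median of -0.08. The summed level of the list was 582 to 1346 CPM in labelled-null SAL and 568 to 756 in wild-type SAL. A large part of that sum was 1 gene, Asprv1. It stood at 64.2, 795 and 360 CPM in labelled-null SAL and at 290, 185 and 210 in wild-type SAL, so the sum is not a level of neutrophil transcripts at large.

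Per kilobase, Retnlg had a median of 1.35 CPM, against 60.9 for Retnla, which alternatively activated macrophages secrete, and 21.4 for Retn, the adipocyte hormone resistin. Retnlb, of the gut epithelium, had no reads. Retn under SAL gave 1.64 ± 0.64 for labelled-null against wild type, and 0.22 without labelled-null SAL replicate 1, the library that was also highest for Retnlg. Retnla had 1.35 ± 0.66 in that comparison and 1.39 ± 0.66 for ASP over SAL in wild type, both against the same wild-type SAL libraries and neither called (adjusted p = 1 and 0.999).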

How the data were processed

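RNA of 12 skin libraries was analysed from the table of raw counts per Entrez Gene ID that the authors deposited without normalization. Per the submitters' processing notes, the tools included TopHat, bcl2fastq, CASAVA 1.8 and DESeq on build mm10. How reads were counted, and whether by strand, is not given in the sources used here. The table's other 6 columns fit no sample and were left out. The genes described and all lists were chosen with earlier results of these data known. Genes kept by filterByExpr were fitted with edgeR 4.0.16 (quasi-likelihood, robust, TMM, R 4.3.3), with 1 coefficient per group, and a gene was called when its p, adjusted over 15341 genes (Benjamini-Hochberg), was under 0.05. Each SE was derived from that fit, as the size of the log2 fold change over the square root of the test's F. The 95% intervals are symmetric and use a t quantile on that SE. Calls and fold changes of the fit were also tried on simulated data, but SEs and intervals were not. The 97 IDs without a symbol held 7.57% to 15.8% of counts. Exon lengths come from the GENCODE annotation and promoters from RefSeq. Named list genes were the 3 with the smallest p per list and comparison, and any other gene was picked with its values in view. Alternatives were other scalings and filters, DESeq2 1.42.0, limma-voom (limma 3.58.1), a replicate block and leaving out libraries.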

Additional observations from a re-analysis of the deposited data

How the results depend on the processing

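The sign of 21 of the 42 log2 fold changes of the 6 tested genes (7 comparisons each) was followed over 20 alternative settings: of these 420 values 402 kept it, 18 turned, and 0 were called. The smallest adjusted p over all 42 and all settings was 0.407 (Retnlg in DESeq2). Over all genes DESeq2 called 2 for ASP in wild type, 2 for ASP in labelled-null, 5 and 6 for labelled-null against wild type under ASP and SAL, 1 for the interaction and 8 for genotype averaged over treatments. That last count was 1 in edgeR, 2 with no filter, 0 with limma-voom and 0 to 2 without single libraries. Replicate numbers did not pair the samples (5 of 18 same-number correlations over 0.1, 3 of 12 libraries closest to their own number), and with the replicate block the count was 0. Without both libraries farthest from the rest it was 0, and 1 for ASP in wild type. With no filter, 0 of the 8 genes were left untested, against 2. Hcar2 in labelled-null ASP was 26.1 CPM of the unscaled total, against 23.8 scaled.

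The cause of the turned signs was not tested. Without both farthest libraries Cxcl5 had -0.00249 for ASP in wild type, 0.16 for ASP in labelled-null and 0.16 for the interaction, Cxcr2 0.028 and Hcar2 -0.00857 for ASP averaged over genotypes, and Retnlg 1.22 for labelled-null against wild type under ASP, which was 0.47 with limma-voom. Without single libraries, Cxcl2 ran from -0.51 to 7.67 between the genotypes under SAL and from -4.47 to 0.64 for ASP averaged over genotypes. Cxcl5 ran from -0.0052 to 0.86 for ASP in wild type and from -0.53 to 0.16 in labelled-null. Cxcr2 ran from -0.21 to 0.046 for ASP averaged, Csf3r from -0.29 to 0.066 for genotype averaged, and Retnlg from -0.92 to 1.22 for labelled-null against wild type under ASP. Without wild-type SAL replicate 1 both remaining wild-type SAL libraries were at 0 for Cxcl2, so the 0.64 and 7.67 depend on the prior count. Depth limits Cxcl1, Cxcl2, Cxcl3 and Retnlg, with 11, 112, 5 and 140 reads in all.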
